A study of Rattus norvegicus with 16 samples.

Results

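MiR-22, named rno-miR-22 on the array, is 1 of the 350 rat miRNAs read in this study. It was chosen by its mean signal over all 8 kidney arrays, which was among the highest. The array reads it with 2 of its 938 miRNA probes. Levels of miRNAs, small RNAs that hold down the mRNAs they pair with, were taken in kidney and plasma 8 h after an iodinated contrast medium, in a rat model of contrast-induced acute kidney injury (CI-AKI). All rats were male Sprague-Dawley rats of 250 to 300 g, 24 in number if each gave both kidney and plasma. Their age was not given in the labels. Every rat, controls included, had been kept from water for 3 days and had received 10 mg/kg furosemide, a diuretic, in muscle. The 4 groups were kidney and plasma of CI-AKI rats, given Omnipaque (350 mg iodine per ml) at 10 ml/kg into the tail vein, and kidney and plasma of control rats, given the same volume of saline. RNA of 3 rats was combined into 1 pool and each pool was read on 1 array, with 4 pools per group and 16 arrays in all. The spread between pools is therefore a spread between means of 3 animals.

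Mature miRNAs are cut from both arms of a hairpin precursor, and as a rule 1 arm, the guide strand, accumulates while the other, written with a star on this array, is mostly degraded. Bases 2 to 8 of a mature miRNA, the seed, pair with sites in target mRNAs. MiR-22 is a widely expressed miRNA that is abundant in heart and skeletal muscle, and it is known to act on Hdac4, a histone deacetylase that holds back muscle gene expression. In mouse kidney it has been linked to fibrosis through bone morphogenetic proteins.

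The sequences are shown because both strands of the miR-22 hairpin were measured and their seeds differ. They are RefSeq's, on the GRCr8 build; by the change of miRNA names, and not by a match of probe sequences, the array's miR-22 was taken as the strand now named miR-22-3p and its miR-22* as miR-22-5p. The hairpin, of 95 bases, lies at chr10:60805331-60805425 on the plus strand, between Wdr81 and Tlcd2 and next to Mir6326 in RefSeq's gene table, and capitals in its line mark the 5p arm and then the 3p arm. In the 2 mature sequences, each of 22 bases, capitals mark the seed.
Mir22 hairpin: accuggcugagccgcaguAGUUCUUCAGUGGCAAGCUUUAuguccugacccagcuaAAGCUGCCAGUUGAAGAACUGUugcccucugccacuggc
rno-miR-22-3p: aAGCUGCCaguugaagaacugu
rno-miR-22-5p: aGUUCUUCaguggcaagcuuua
MiR-22-3p occupies chr10:60805387-60805408 and miR-22-5p chr10:60805349-60805370. Among 724 rat mature sequences in the RefSeq table, 0 others share the 3p seed and 0 others share the 5p seed, so neither strand has a seed family in that table.

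Array quality bears on every value below. Kidney arrays detected 169 to 216 miRNAs, and the summed miRNA signal was lowest, at 46920, on CI-AKI kidney pool 3. Plasma arrays detected 156 to 211 miRNAs except on pool 4, which had 95 in the CI-AKI group and 84 in the control group. The RNA added before labelling as a control read 108 on CI-AKI plasma pool 4 and 39.3 on control plasma pool 4, against 891 to 2283 on the other plasma arrays. Each tissue had a slide of its own, so tissue and slide cannot be told apart, and neither can treatment and slide column, since CI-AKI and control pools took alternate columns. The samples also carry 8 letter codes, used once in each tissue, and 6 of the 8 letters have opposite treatment labels in kidney and plasma. The labels do not say what a letter means. Groups here follow the titles, and the values under the other tissue's labels are given at the end.

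MiR-22 was measured well above background on every array. All 10 spots of each of its probes passed that call on all 16 arrays, and 0 spots were saturated. The coefficient of variation over the spots of a probe had a median of 4.60% for 1 probe, with a range over arrays of 1.56% to 8.12%, and a median of 3.14% for the other, with a range of 1.01% to 6.83%. Even on the weak pool 4 plasma arrays the mean signal before scaling was 97.2 in the CI-AKI pool and 69.6 in the control pool.

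MiR-22 was selected on its scaled kidney signals, which are given as a description. An array's signals were divided by its 75th percentile and brought to a common level, and miR-22 then averaged 4004 ± 361 over the 8 kidney arrays (SD). It stood in place 4 by that mean, after let-7a at 4118 ± 248 and before miR-30c at 3324 ± 283. It was in places 2 to 4 on each kidney array. In plasma, which the choice did not use, it stood in place 7 of the 350 at 1092 ± 371 (SD, n = 8 arrays) and in places 3 to 9 on single arrays. Such places describe brightness on this array only, since probes of different miRNAs bind and are labelled differently.

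In kidney, miR-22 had scaled signals of 4114, 3735, 4854 and 3917 in CI-AKI pools 1 to 4. In control pools 1 to 4 the scaled signals were 3870, 3795, 3912 and 3837. CI-AKI pool 3 was the highest of the 8, CI-AKI pool 2 the lowest, and the groups overlapped. The group means were 4155 ± 491 in CI-AKI kidneys and 3854 ± 49.6 in control kidneys (SD, n = 4 each). The coefficient of variation over pools was 11.8% in CI-AKI kidneys and 1.29% in control kidneys. Scaled to the RNA added before labelling, the order was reversed, with log2 SDs of 0.17 in CI-AKI and 0.26 in control kidneys. Without scaling the log2 SDs were 0.34 in CI-AKI and 0.19 in control kidneys, and the other scalings tried kept that order.

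The log2 difference of miR-22 between CI-AKI and control kidneys was 0.10 (SE 0.085, 95% interval -0.090 to 0.29, limma adjusted p = 0.917), which did not pass the test. In this fit 3 of 176 tested miRNAs passed adjusted p 0.05 (1.70%), namely miR-327, miR-466b and miR-494, and 9 had groups that did not overlap (5.11%). Of these calls, miR-327 and miR-466b were not detected on all 8 kidney arrays. When detection on every array was required, 0 miRNAs passed. By unadjusted p, miR-22 stood in place 47 of 176, and 11 of the 176 had an unadjusted p under 0.05 (6.25%). Without CI-AKI pool 3 its difference was 0.0091 (SE 0.057, limma adjusted p = 0.986), so most of the kidney difference came from that pool. Pools 1 and 2 of both groups lay in the upper row of the slide and pools 3 and 4 in the lower, and the difference was 0.033 in the upper row and 0.17 in the lower row.

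**Figure D1:**
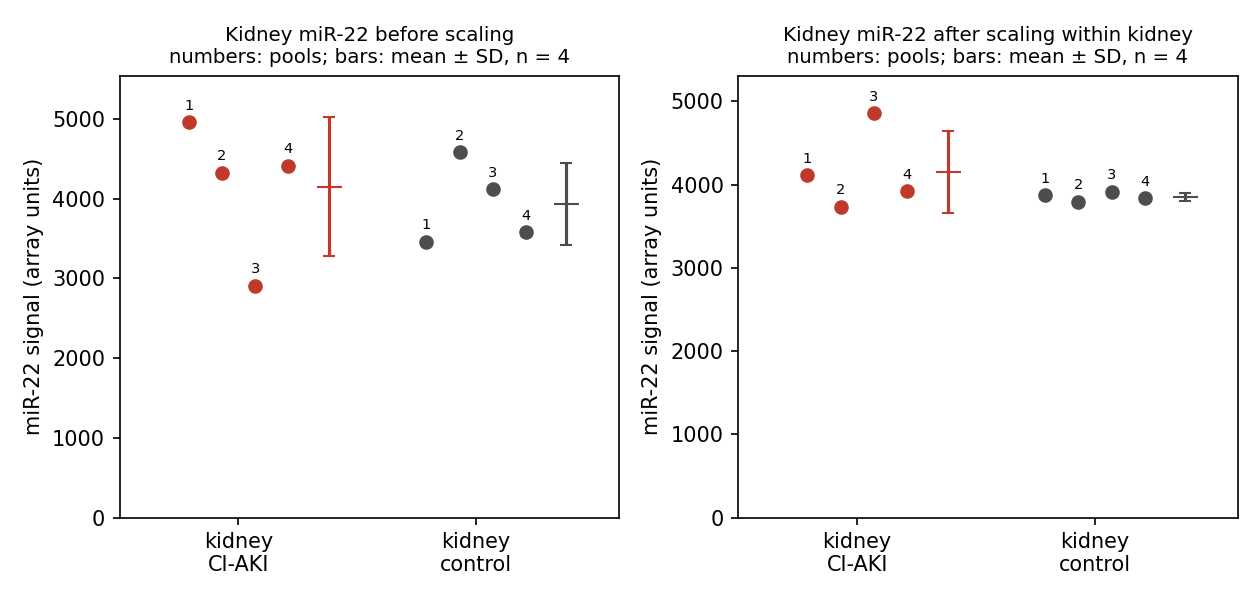
MiR-22 signal in array units on the 8 kidney arrays, before scaling (left) and after division by each array's 75th percentile (right), with CI-AKI pools left of control pools; points are pools, bars mean ± SD. CI-AKI pool 3 is the lowest point before scaling, at 2910, and the highest after it, at 4854.

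Scaling moved CI-AKI pool 3 from one end of the group to the other. Before scaling, miR-22 signals were 4959, 4327, 2910 and 4412 in CI-AKI kidney pools 1 to 4, against 3461, 4584, 4118 and 3579 in control kidney pools 1 to 4. Pool 3 was the lowest of all 8 there. Its 75th percentile was 228, against 428 to 458 on the other CI-AKI kidney arrays and 340 to 459 on the control kidney arrays. After scaling, miR-22 in that pool was 0.32 above the mean of the other 7 kidney arrays on the log2 scale, and 9 of the 163 miRNAs detected on all kidney arrays deviated upwards by more. The part of array signal in this deviation was not tested.

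Both probes of miR-22 gave the same picture in kidney. Probe A_26_P00001212 averaged 3254 ± 373 in CI-AKI kidneys and 3021 ± 16.7 in control kidneys (SD, n = 4 each), a log2 difference of 0.10 (two-sided exact permutation p = 0.314, and 0.629 adjusted over the 4 tests of probe and tissue). Probe A_26_P00001213 averaged 5056 ± 610 in CI-AKI kidneys and 4686 ± 115 in control kidneys, a log2 difference of 0.10 (exact permutation p = 0.314, adjusted 0.629). The smallest p that the 70 labellings can give is 0.0286. Over the 8 kidney arrays the log2 signals of the probes had a correlation of 0.970.

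The passenger strand, miR-22*, was far dimmer but was detected on all 8 kidney arrays. Its scaled signals were 45.2, 40.5, 30.6 and 42.0 in CI-AKI kidney pools 1 to 4. In control kidney pools 1 to 4 they were 38.3, 39.3, 42.1 and 37.1. CI-AKI pool 3, the highest array for miR-22, was the lowest for miR-22*, and the groups overlapped. The log2 difference was -0.00058 (SE 0.12, 95% interval -0.26 to 0.26, limma adjusted p = 0.996). Without CI-AKI pool 3 it was 0.10 (SE 0.070, limma adjusted p = 0.894).

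**Figure D2:**
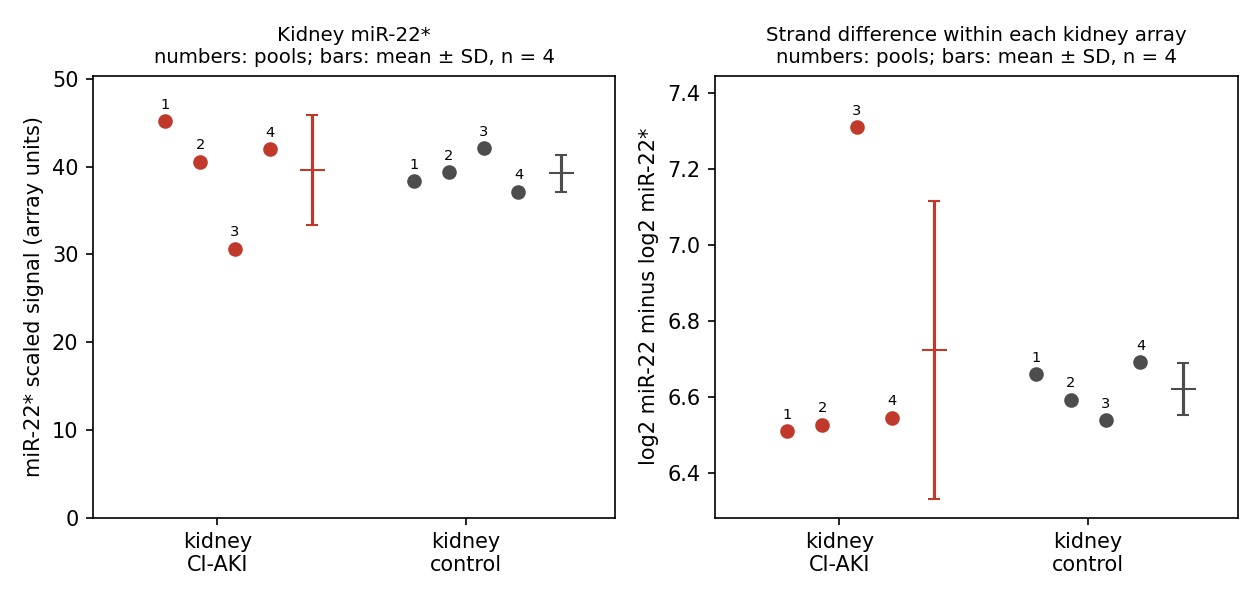
Scaled signal of miR-22* in array units (left) and log2 signal of miR-22 minus that of miR-22* on the same array (right) for the kidney pools, with CI-AKI left of control; points are pools, bars mean ± SD. CI-AKI pool 3 has the lowest miR-22* signal, 30.6, and the largest strand difference, 7.31.

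The difference between the strands can be taken within an array and needs no scaling, but it keeps the background correction of each strand. It says only whether the strands changed unequally, since their probes have no common scale. Before scaling, miR-22* read 18.3 in CI-AKI kidney pool 3, against 34.2 to 54.5 on the other kidney arrays. The part of background in the strand difference was not tested. The log2 signal of miR-22 minus that of miR-22* was 6.51, 6.53, 7.31 and 6.54 in CI-AKI kidney pools 1 to 4, against 6.66, 6.59, 6.54 and 6.69 in control kidney pools 1 to 4. Pool 3 stood far above all others, while the other 3 CI-AKI pools lay close to the lowest control pool or under it. The means were 6.72 ± 0.39 in CI-AKI kidneys and 6.62 ± 0.068 in control kidneys (SD, n = 4 each). They differed by 0.10 (two-sided exact permutation p = 0.971). Without CI-AKI pool 3 the difference was -0.094 (exact permutation p = 0.0857), so its sign rested on that pool.

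In plasma, miR-22 had scaled signals of 1438, 1364, 1380 and 539 in CI-AKI pools 1 to 4. In control pools 1 to 4 they were 720, 1201, 1388 and 710. CI-AKI pools 1 to 3 lay close together at the upper end of the control range, whereas CI-AKI pool 4 was the lowest of the 8, and the groups overlapped. The means were 1180 ± 429 in CI-AKI plasma and 1005 ± 343 in control plasma (SD, n = 4 each).

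The log2 difference of miR-22 between CI-AKI and control plasma was 0.19 (SE 0.39, 95% interval -0.67 to 1.06, limma adjusted p = 0.951), which did not pass the test. In limma 0 of 96 tested plasma miRNAs passed (0%), 5 had an unadjusted p under 0.05 and 5 had groups that did not overlap (5.21% each). Without CI-AKI pool 4 the difference was 0.57 (SE 0.34, limma adjusted p = 0.771), and without the pool 4 arrays of both groups it was 0.64 (SE 0.31, unadjusted p = 0.0615, limma adjusted p = 0.303). It was 0.59 in the upper slide row and -0.20 in the lower row. Scaling to the labelling control RNA turned the sign, as did another background correction (normexp), with values given at the end.

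Plasma probes did not separate the groups either. Probe A_26_P00001212 averaged 924 ± 363 in CI-AKI plasma and 759 ± 265 in control plasma (SD, n = 4 each), a log2 difference of 0.23 (exact permutation p = 0.771, adjusted 0.829). For probe A_26_P00001213 the means were 1436 ± 496 in CI-AKI plasma and 1250 ± 421 in control plasma, a log2 difference of 0.17 (exact permutation p = 0.829, adjusted 0.829). The probes had a correlation of 0.995 over the 8 plasma arrays, so the spread in plasma lay between arrays and not between probes. Each array held 1 pool, so pool, labelling and array cannot be told apart.

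**Figure D3:**
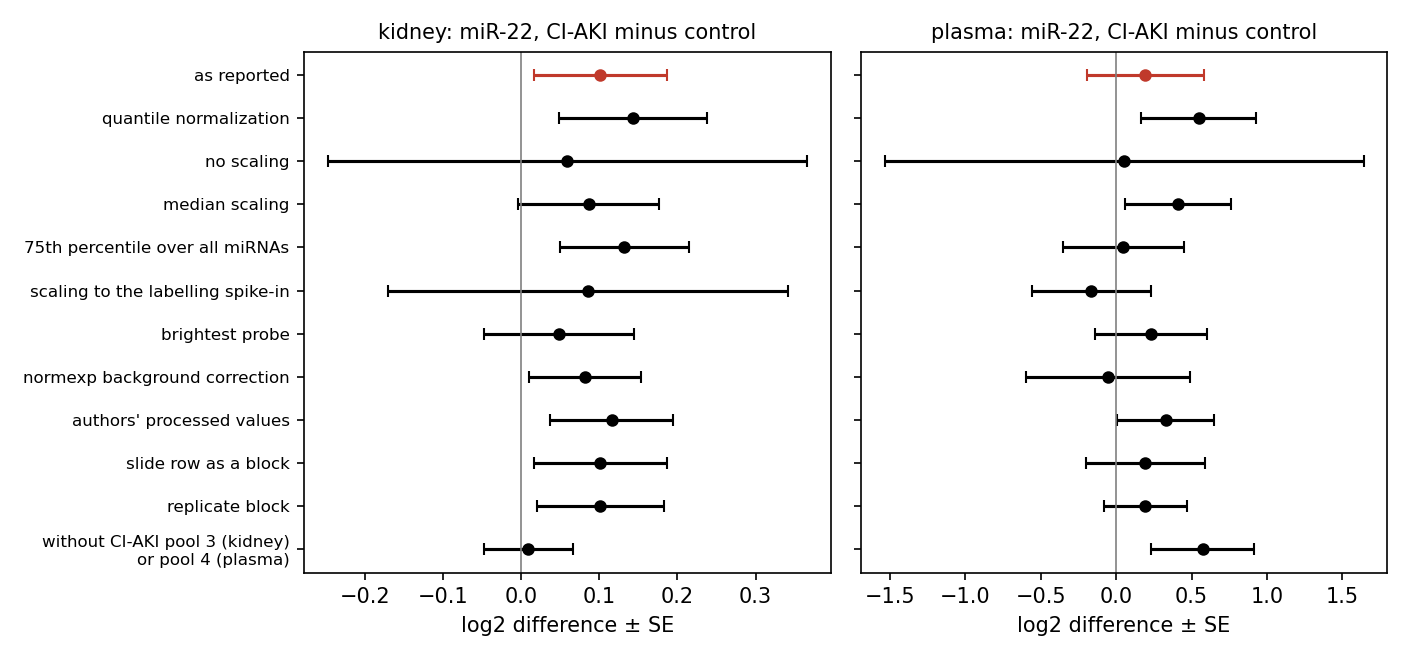
Log2 difference of miR-22, CI-AKI minus control, with its SE (bars), in kidney (left) and plasma (right) as reported (red) and under alternative processing (black). The reported values are 0.10 in kidney and 0.19 in plasma; the horizontal axes differ, since SEs were 0.085 in kidney and 0.39 in plasma.

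MiR-22* was too dim in plasma to be compared. It was detected in 2 of 4 CI-AKI plasma pools, at scaled signals of 13.7 and 9.51 in pools 2 and 3, and in 3 of 4 control plasma pools, at 9.23, 10.3 and 10.9 in pools 1 to 3. It was detected on neither pool 4 array, and the filter on detection left it out of the plasma fit.

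Whether contrast medium moved miR-22 differently in the 2 tissues was asked in 1 fit of all 16 arrays. That fit took the arrays as independent and had no term for rats that may have given both tissues. It also took 1 residual spread for both tissues. The log2 SDs of miR-22 were unequal, at 0.21 in CI-AKI kidney, 0.041 in control kidney, 0.70 in CI-AKI plasma and 0.48 in control plasma. The kidney effect minus the plasma effect was -0.14 on the log2 scale (SE 0.41, 95% interval -1.02 to 0.74, limma adjusted p = 0.938). In that fit 1 of 87 tested miRNAs passed (1.15%), namely miR-327, and 3 had an unadjusted p under 0.05 (3.45%). The sign for miR-22 turned under 4 alternatives, given at the end. Without the pool 4 plasma arrays the miR-22 value was -0.52 (SE 0.24, unadjusted p = 0.0509, limma adjusted p = 0.352).

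**Figure D4:**
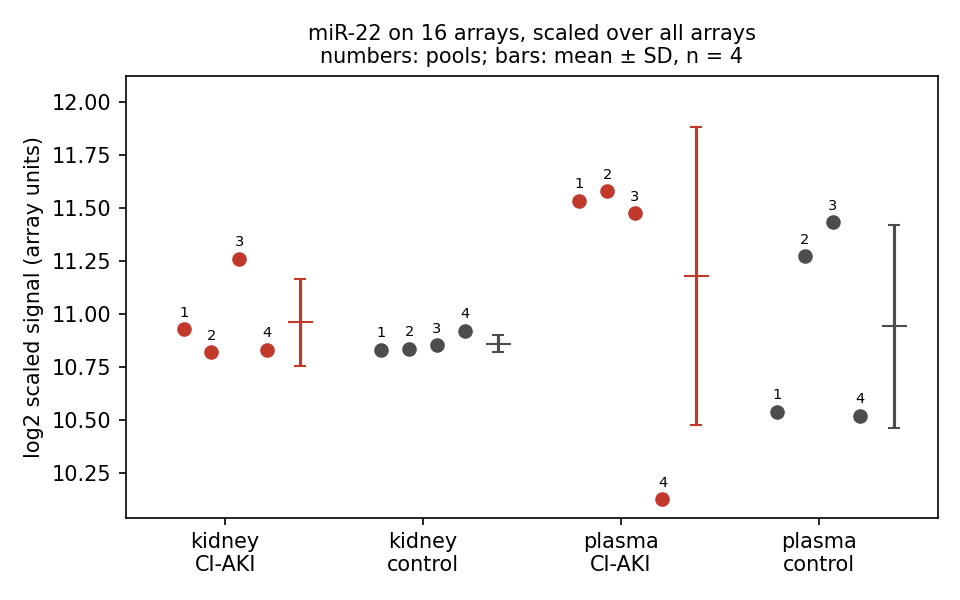
Log2 scaled signal of miR-22 on all 16 arrays, scaled over the miRNAs detected on all of them, by tissue and treatment; points are numbered pools, bars mean ± SD. Kidney control pools lie within 10.83 to 10.92, and plasma CI-AKI pool 4 is the lowest array at 10.13.

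For levels across tissues all arrays were scaled over the 65 miRNAs detected on every array. Since miR-22 was chosen for its kidney signal, these levels are a description without a test. The mean log2 scaled signal was 10.96 ± 0.21 in CI-AKI kidney, 10.86 ± 0.041 in control kidney, 11.18 ± 0.70 in CI-AKI plasma and 10.94 ± 0.48 in control plasma (SD, n = 4 each). The order from the top was CI-AKI plasma, CI-AKI kidney, control plasma and control kidney, and each neighbouring pair differed by less than the larger of the 2 SDs. The scaled signals ran from 1806 to 2451 in CI-AKI kidney, inside the 1117 to 3057 of CI-AKI plasma. In the controls they ran from 1821 to 1937 in kidney, inside the 1466 to 2762 of plasma.

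The direction between tissues depended on the scaling. Kidney minus plasma was -0.22 in CI-AKI rats and -0.081 in control rats on the log2 scale with that scaling, and -0.57 in CI-AKI rats and -0.22 in control rats without plasma pool 4. It was 0.56 in CI-AKI rats and 0.31 in control rats when arrays were scaled to the labelling control RNA. It was 1.96 in CI-AKI rats and 1.95 in control rats without scaling, and 0.82 in CI-AKI rats and 0.67 in control rats when plasma pool 4 was also left out. In the authors' deposited table it was 0.26 in CI-AKI rats and 0.47 in control rats. In CI-AKI and then control rats it was 0.21 and 0.48 with median scaling, and 0.57 and 0.48 with the percentile over all miRNAs. It was 0.47 and 0.72 with quantile normalization, and 0.21 and 0.12 with normexp. With all pools, only the first scaling put plasma above kidney. Without plasma pool 4, normexp also did (-0.22 and -0.16), as did median scaling in CI-AKI rats (-0.081). These files therefore settle no direction between the tissues for miR-22.

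The authors' deposited table gives miR-22 the same log2 value on 6 of the 8 kidney arrays and its highest kidney value in CI-AKI pool 3. Its values were 11.76, 11.62, 11.94 and 11.62 in CI-AKI kidney pools 1 to 4 and 11.62 in each of the 4 control kidney pools. Above the column median, where miR-22 lies, quantiles of the authors' deposited table differed by at most 0.030 between arrays, so a value there follows closely from the rank on the array, and 6 of the 8 kidney arrays share 1 value. In the authors' deposited table the plasma values were 11.94, 11.62, 11.62 and 10.72 in CI-AKI pools 1 to 4, against 10.90, 11.40, 11.40 and 10.90 in control pools 1 to 4. Fitted on the authors' deposited table, the log2 differences were 0.12 in kidney (SE 0.079, limma adjusted p = 0.789) and 0.33 in plasma (SE 0.32, limma adjusted p = 0.995).

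The miRNAs whose kidney pattern was most like that of miR-22 were sought among the other 162 detected on all 8 kidney arrays. The Pearson correlation of log2 scaled signals over the 8 arrays, which share slide and scaling, was 0.971 for miR-320, 0.936 for miR-140, a miRNA best known from cartilage, 0.931 for miR-324-3p, 0.885 for miR-484 and 0.883 for miR-409-3p, a member of the imprinted Dlk1-Dio3 cluster. The median over all 162 was 0.026. The likeness leaned on CI-AKI pool 3: without it the correlations over 7 arrays were 0.763 for miR-320, 0.536 for miR-140, 0.818 for miR-324-3p, 0.258 for miR-484 and -0.029 for miR-409-3p. In plasma, miR-140 and miR-409-3p were detected on all 8 arrays, with correlations to miR-22 of -0.707 for miR-140 and -0.731 for miR-409-3p. Without the plasma pool 4 arrays these were -0.552 for miR-140 and 0.062 for miR-409-3p.

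**Figure D5:**
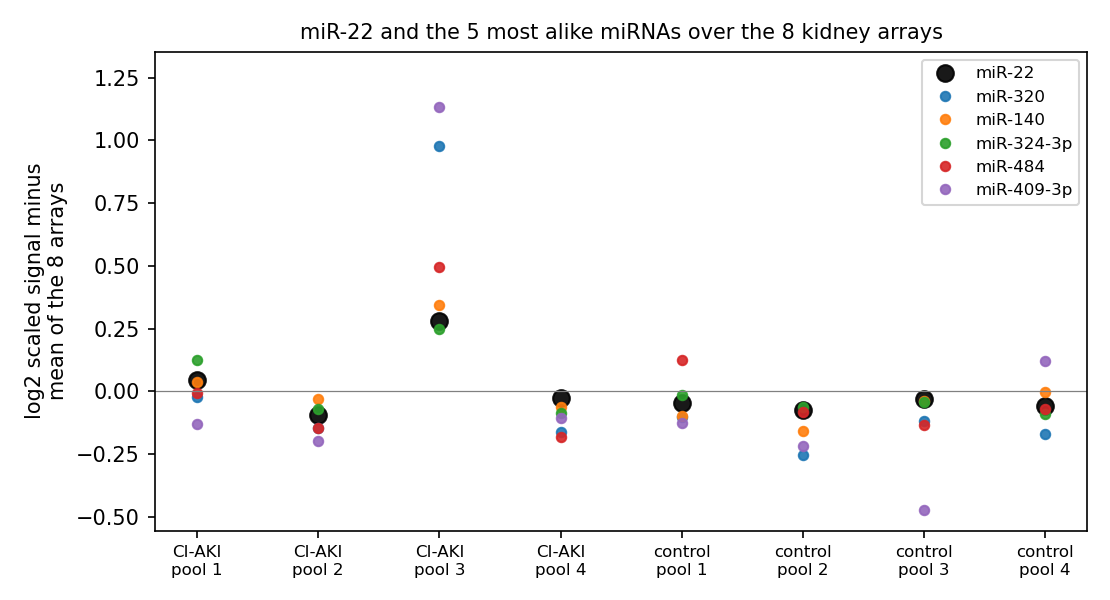
Log2 scaled signal, minus the mean of the 8 kidney arrays, of miR-22 (black) and the 5 miRNAs with the highest correlation to it (colours), as 1 point per array, for CI-AKI pools (left) and control pools (right). In CI-AKI pool 3 all 6 lie above their means; points of one array stand above one another, and on the other 7 arrays miR-22 lies close to 0.

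MiR-22* itself stood in place 145 of the 162, with a correlation of -0.674 to miR-22. Without CI-AKI pool 3 the correlation between the strands was 0.723 over 7 arrays. The miRNAs most like miR-22 did not pass the treatment test in kidney, where 3 of 176 passed (1.70%). They were picked by their likeness to miR-22 on the same arrays, so this is no separate result. Their log2 differences ran from 0.081 (SE 0.14) for miR-484 to 0.35 (SE 0.28) for miR-409-3p, at a limma adjusted p of 0.917 each.

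Other miRNAs that share a role or a tissue with miR-22 were read in the same fits. Of 10 miRNAs linked to kidney fibrosis, 8 were tested in kidney and 0 passed, against 3 of all 176 tested (1.70%). Among them 4 were higher and 4 lower, with a median log2 difference of 0.0051, against 0.028 over all 176. MiR-29a, which restrains collagen genes, stood at 0.070 (SE 0.069) and miR-192, a tubule miRNA, at -0.050 (SE 0.062). In plasma 6 were tested and 0 passed, as did 0 of all 96 (0%). Of the 6, 2 were higher and 4 lower, with a median of -0.14, against -0.086 over all 96. Of 6 heart and skeletal muscle miRNAs, tissues where miR-22 is abundant, 4 were detected on no kidney array. The 1 tested in kidney, miR-499, stood at -0.064 (SE 0.15). In plasma miR-1 stood at 0.30 (SE 0.38) and miR-133b at 0.47 (SE 0.42), and neither passed.

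Markers of other cell types were read because pools with more blood or fewer tubule cells could shift a bulk level; in bulk samples, fewer cells of a type and less RNA per cell cannot be told apart. The 5 tubule miRNAs were all detected in kidney and their summed scaled signal ran from 4890 to 5099 in CI-AKI kidney pools and from 4772 to 5081 in control kidney pools. The 3 erythroid miRNAs on the array summed to 1716 to 1853 in CI-AKI kidneys and 1683 to 1796 in control kidneys. That sum joins miR-16, which many cell types hold, at a log2 difference of -0.013 (SE 0.065), miR-144 at 0.13 (SE 0.15) and miR-451, abundant in red cells, at 0.26 (SE 0.18, limma adjusted p = 0.917). The 4 leukocyte miRNAs on the array summed to 459 to 566 in CI-AKI kidneys and 487 to 597 in control kidneys. Of the 2 endothelial and 2 smooth muscle miRNAs 0 passed in kidney or plasma. The liver miRNA miR-122 was detected on no kidney array. In plasma the erythroid sum ran from 2558 to 8291 in CI-AKI pools and from 3816 to 5619 in control pools, and the leukocyte sum from 1566 to 3488 in CI-AKI pools and from 2287 to 3019 in control pools. Of the erythroid and leukocyte markers, 0 of 7 passed in either tissue. Of all tested miRNAs, 3 of 176 passed in kidney (1.70%) and 0 of 96 in plasma (0%), so such counts set no marker apart. The part of these markers in the plasma spread of miR-22 was not tested.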

How the data were processed

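Per the file headers, spot intensity was extracted by the authors with Agilent Feature Extraction 10.7.3.1 from 1-colour scans. The deposited files give a background-subtracted signal per spot and flags for outliers, saturation and detection. The authors also deposited log2 values; how these were made is not given in the sources used here, and above the column median their quantiles are nearly equal across arrays. Spots without outlier flags were averaged per probe, then per miRNA. Arrays were divided by their 75th percentile over miRNAs detected on all arrays of the fit (74 in plasma, 163 in kidney, 65 over both), brought to a common level and floored at the median lowest detected signal (0.976 in plasma, 1.79 in kidney), before log2. A miRNA entered the test if 1 group or more had it detected in all 4 pools. Tests were two-sided, by lmFit and eBayes (limma 3.58.1 under R 4.3.3), and p-values were adjusted over all tested miRNAs by Benjamini-Hochberg, at 0.05. The limma script was tested on simulated data with 20 changed miRNAs. The fit of 176 kidney miRNAs found 79.2% of those changed by 0.5 (log2) and 94.8% of those changed by 1. The fit of 96 plasma miRNAs found 1% and 38.5%. The simulated noise was normal and independent between miRNAs, and no simulated array stood apart. These rates therefore do not cover arrays such as CI-AKI kidney pool 3 or plasma pool 4. Each run held 20 changed miRNAs, against 3 calls in kidney and 0 in plasma. With fewer changed miRNAs the Benjamini-Hochberg adjustment is stricter, so the rates may be too high for 1 changed miRNA. Figures used matplotlib 3.10.9 and Python 3.11.15 with pandas 2.3.3. Groups come from the sample titles. Nothing says that plasma and kidney pools of 1 number share rats. In plasma, same-numbered CI-AKI and control pools deviated together, with correlations of 0.224 to 0.619 in all 4 pairs, and they also lay side by side on the slide. MiR-22, the lists and the rule for named miRNAs (both strands, 5 most alike, neighbours in brightness, up to 4 per list) were chosen with earlier results of these data known. One list of miRNAs is not reported here. No genome was used, and probe sequences were not used here. The number of arrays limits the precision.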

Additional observations from a re-analysis of the deposited data

Results flagged for a closer look

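Within groups of 4 pools, 18 sets of miR-22 or miR-22* values were examined for a pool far from the other 3, and 5 held one; chance gives about 1 in 20, and the sets share arrays. In CI-AKI plasma, pool 4 had a log2 scaled miR-22 signal of 9.07 against 10.41 to 10.49 in the other pools. Its probes stood apart likewise, probe A_26_P00001212 at 8.59 against 10.03 to 10.18 and probe A_26_P00001213 at 9.44 against 10.67 to 10.74. In control plasma, pool 4 had miR-22* at the floor, -0.034 on the log2 scale, against 3.21 to 3.45 in the other pools; miR-22* was not detected there. In CI-AKI kidney, the log2 difference of miR-22 and miR-22* was 7.31 in pool 3 against 6.51 to 6.54 in the other pools.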

How the results depend on the processing

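MiR-22 passed adjusted p 0.05 in 0 of 24 alternatives in kidney (adjusted p from 0.676 to 0.99993), 0 of 24 in plasma (0.303 to 0.999) and 0 of 30 for the interaction (0.352 to 0.99999). In kidney its log2 difference reversed when each letter took its plasma treatment label (-0.087) and, in an alternative added after seeing the data, without pool 3 of both groups (-0.060). In plasma it reversed with scaling to the labelling control RNA (-0.16), with normexp (-0.052) and when each letter took its kidney label (-0.39). The interaction reversed without scaling (0.0067), with the percentile over all miRNAs (0.084), scaled to the labelling RNA (0.25) and with normexp (0.096). The strand difference in kidney reversed without CI-AKI pool 3 (-0.094). For miR-22* in kidney the sign turned with the percentile over all miRNAs (0.030), with normexp (0.037), without pool 3 of both groups (0.061), with the letter codes (0.089), without CI-AKI pool 3 (0.10) and without control pool 2 (0.0014), and the values ran from -0.069 to 0.10 over single pools left out.

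Leaving out single arrays gave 0.0091 to 0.15 for miR-22 in kidney, 0.055 to 0.57 in plasma, -0.50 to -0.0043 for the interaction and -0.094 to 0.17 for the strand difference. The number of kidney miRNAs that passed, 3 as reported, was 1 with quantile normalization, 1 without scaling, 1 with all 4 groups in 1 fit, 0 with normexp, 0 with detection on every array and 0 with the letter codes, and 2 to 3 over single arrays left out. For the interaction, 1 as reported, it was 0 with quantile normalization, 0 without scaling, 0 with normexp, 0 with detection on every array, 2 without plasma pool 4 of both groups and 1 to 4 over single arrays left out, with 4 without CI-AKI plasma pool 2 and 2 without control plasma pool 4. In plasma 0 passed in all 24 alternatives. Apart from settings whose construction leaves out arrays or miRNAs, the cause was not tested.

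With the pool number as a replicate block, miR-22 kept its log2 difference of 0.10 in kidney (SE 0.082, adjusted p = 0.915), 0.19 in plasma (SE 0.27, adjusted p = 0.789) and -0.14 for the interaction (adjusted p = 0.903), the strand difference kept 0.10 (exact sign-flip p = 1), and the block changed no call of miR-22. In kidney 3 of 4 same-numbered pairs correlated above 0.1 (-0.0999 to 0.588) and 1 of 4 CI-AKI pools correlated best with its own number. Same-numbered kidney pools also lay side by side on the slide. Whether they share anything more was not tested.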
